A study of Homo sapiens with 9 samples.

Results

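The linker histone H1 genes were followed in A549, an epithelial cell line of human lung adenocarcinoma origin, treated for 7 days with an inhibitor of protein arginine methylation. Earlier results of these data were known when the family was chosen, and its genes were taken by symbol. They were HIST1H1A, HIST1H1B, HIST1H1C, HIST1H1D, HIST1H1E, HIST1H1T, H1F0 and H1FX, and all 8 were found among the 51796 gene identifiers of the count table. One group received GSK591 at 1 µM, which inhibits PRMT5, the main enzyme of symmetric arginine dimethylation. Another received MS023 at 1 µM, which inhibits the type I enzymes of asymmetric dimethylation, and the controls received the solvent DMSO. Each group had 3 libraries of paired-end reads, made from total RNA after removal of ribosomal RNA and primed with random hexamers. Plates for the inhibitors were seeded with 0.4 times 1e5 cells and plates for DMSO with 0.2 times 1e5 cells, so that seeding and treatment cannot be told apart in a comparison with DMSO. The sources do not say whether the triplicate RNA came from separate cultures, and the p-values measure only the spread between these libraries.

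Linker histones bind the nucleosome where DNA enters and leaves it, together with the linker DNA between nucleosomes, and help to fold chromatin. HIST1H1A to HIST1H1E code for the somatic subtypes made mainly in S phase, when new chromatin is assembled, and their mRNAs end in a stem-loop instead of a poly(A) tail. H1F0 and H1FX lie outside the histone clusters, have polyadenylated mRNAs and are expressed independently of replication, and the protein of H1F0 is known for accumulating in differentiated or resting cells. HIST1H1T codes for the subtype of male germ cells. Random priming without poly(A) selection lets both kinds of mRNA enter a library.

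The libraries held 31398075 to 51244525 counts. Mitochondrial ribosomal RNA reached 932.5 CPM (counts relative to the library total after TMM scaling) in GSK591 replicate 3 and 0.410 to 20.7 CPM in the other libraries, highest of these in DMSO replicate 1. Only GSK591 replicate 3 stood far apart. The mitochondrial ribosomal RNA genes MT-RNR1 and MT-RNR2 had 10.6 and 10.1 CPM in DMSO replicate 1, close to 8.08 and 9.38 CPM in GSK591 replicate 1. Without the 2 libraries GSK591 replicate 3 and DMSO replicate 1, a choice made after seeing the data, H1 genes passing the test numbered 7 in GSK591 against DMSO, 5 in MS023 against DMSO and 7 in MS023 against GSK591. The 7 markers of A549 and epithelial cells were all above 1 CPM in every group, with summed levels of 21690 to 21880 CPM in GSK591, 23850 to 24160 CPM in MS023 and 21400 to 22670 CPM in DMSO. The sums hide single changes against DMSO (edgeR, adjusted p under 0.05). In GSK591 2 markers were higher and 3 lower, which is 71.4% called against 62.6% of all tested genes. In MS023 3 were higher and 3 lower, which is 85.7% against 51.0%. The 7 leukocyte markers summed to 33.9 to 35.0 CPM in GSK591, 21.3 to 22.3 CPM in MS023 and 26.1 to 27.5 CPM in DMSO, with 3 of 7 at 1 CPM or more in each group. CD3E was at 0 in GSK591 and DMSO and LYZ in GSK591. The 6 markers of fibroblasts and endothelium that were found summed to 10.5 to 12.4 CPM in GSK591, 28.1 to 31.2 CPM in MS023 and 15.5 to 17.8 CPM in DMSO, and DCN was at 0 in both inhibitor groups. The part of these markers in the results was not tested.

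The promoters are shown because most members of the histone cluster share elements that H1FX lacks in this window. RefSeq (GRCh38.p14) gave a promoter for 7 of the 8 genes, and H1F0 is the exception. Each line runs 5′ to 3′ on the strand of the gene, from 130 bases before the transcript start through the first 10 bases after it. Capitals mark the H1 box AAACACA, the CCAAT box CCAAT and the TATA box TATAAA or TATATA, which may overlap.
HIST1H1C promoter (chr6:26056461-26056600, minus strand): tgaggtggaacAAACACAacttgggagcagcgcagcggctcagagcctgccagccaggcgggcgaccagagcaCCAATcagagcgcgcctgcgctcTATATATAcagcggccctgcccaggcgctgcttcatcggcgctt
HIST1H1E promoter (chr6:26156199-26156338, plus strand): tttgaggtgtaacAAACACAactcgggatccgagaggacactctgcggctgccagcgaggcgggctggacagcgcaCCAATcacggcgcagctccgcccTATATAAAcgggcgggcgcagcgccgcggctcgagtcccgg
HIST1H1D promoter (chr6:26234978-26235117, minus strand): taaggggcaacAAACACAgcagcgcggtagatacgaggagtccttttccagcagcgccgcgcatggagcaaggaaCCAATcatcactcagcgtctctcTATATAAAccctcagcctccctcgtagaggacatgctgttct
HIST1H1B promoter (chr6:27867579-27867718, minus strand): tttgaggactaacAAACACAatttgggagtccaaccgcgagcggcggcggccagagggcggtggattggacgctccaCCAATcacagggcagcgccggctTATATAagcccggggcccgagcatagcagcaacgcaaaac
HIST1H1T promoter (chr6:26108126-26108265, minus strand): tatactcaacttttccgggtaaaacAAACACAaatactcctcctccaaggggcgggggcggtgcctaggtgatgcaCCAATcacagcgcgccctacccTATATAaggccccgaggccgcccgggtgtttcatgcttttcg
HIST1H1A promoter (chr6:26017778-26017917, minus strand): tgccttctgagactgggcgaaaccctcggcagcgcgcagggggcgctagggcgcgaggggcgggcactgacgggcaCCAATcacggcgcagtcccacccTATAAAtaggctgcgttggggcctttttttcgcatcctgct
H1FX promoter (chr3:129316277-129316416, minus strand): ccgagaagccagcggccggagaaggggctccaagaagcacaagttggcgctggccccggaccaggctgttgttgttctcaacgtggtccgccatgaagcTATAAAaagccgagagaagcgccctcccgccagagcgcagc
An H1 box, a CCAAT box and a TATA box stood in this order on the gene's strand in HIST1H1B, HIST1H1C, HIST1H1D, HIST1H1E and HIST1H1T. Of the 35116 promoters of 300 bases in the table, 11 (0.0313%) held the 3 motifs in this order, and 5 of the 11 belonged to these genes. The H1 box began 117 bases before the start in HIST1H1B and HIST1H1E, 119 before it in HIST1H1C and HIST1H1D and 105 before it in HIST1H1T. In HIST1H1A the printed window held the CCAAT and TATA boxes without an H1 box, and in H1FX the TATA box alone. Counted on both strands of the same 300 bases, AAACACA was present in 5.64% of all promoters, CCAAT in 34.6%, TATAAA in 11.5% and TATATA, which reads the same on both strands, in 3.99%. These matches describe letters in a window and not sites in use.

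**Figure D1:**
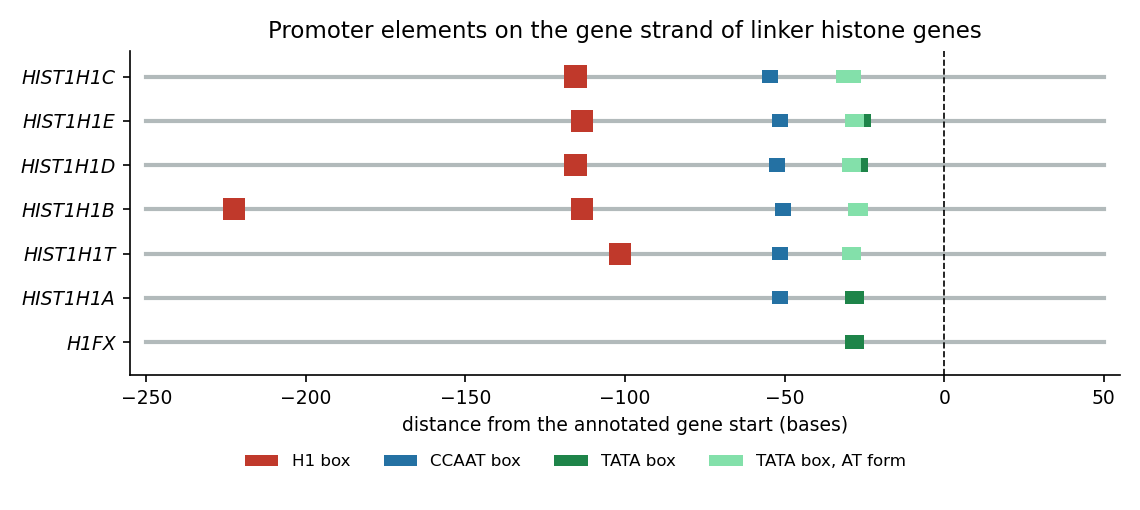
Positions of the H1 box, CCAAT box and TATA box in the promoters of 7 H1 genes, in bases from the transcript start (horizontal axis), one gene per line. HIST1H1B, HIST1H1C, HIST1H1D, HIST1H1E and HIST1H1T carry the 3 motifs in the same order, H1FX carries the TATA box alone, and HIST1H1B has a further H1 box farther from the start.

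Sequence copies among the members were short. No stretch of 50 bases of any H1 transcript (GENCODE v29) occurred in a transcript of another gene, and the longest run shared by 2 members was 37 bases, between HIST1H1B and HIST1H1E. H1FX alone overlapped another gene, its antisense neighbour H1FX-AS1, which had 18 to 51 counts per library. The strand setting of the counting is not given in the sources used here, so reads of this pair cannot be told apart.

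Levels were compared between genes in the authors' FPKM, which is per length of transcript. HIST1H1C (ENSG00000187837, chr6:26055968-26056699 in hg19), which codes for subtype H1.2, had the highest level, at 377 ± 30.3 FPKM in GSK591, 1006 ± 123 in MS023 and 1344 ± 117 in DMSO (SD, n = 3 each). HIST1H1E (ENSG00000168298, chr6:26156559-26157343), which codes for H1.4, followed at 257 ± 30.0 FPKM in GSK591, 746 ± 37.3 in MS023 and 685 ± 26.3 in DMSO. HIST1H1D (ENSG00000124575, chr6:26234440-26235216), which codes for H1.3, had 133 ± 10.1 FPKM in GSK591, 405 ± 68.0 in MS023 and 653 ± 77.4 in DMSO. These S-phase genes stood above all other members in each group, and only HIST1H1E and HIST1H1D in DMSO had overlapping ranges among the neighbours in the order from HIST1H1C to HIST1H1T.

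HIST1H1B (ENSG00000184357, chr6:27834570-27835359), which codes for H1.5, came next with 57.7 ± 3.68 FPKM in GSK591, 244 ± 22.2 in MS023 and 290 ± 28.6 in DMSO. H1FX (ENSG00000184897, chr3:129033615-129035120), which codes for H1x, had 50.1 ± 2.79 FPKM in GSK591, 69.3 ± 3.53 in MS023 and 85.3 ± 8.15 in DMSO. H1F0 (ENSG00000189060, chr22:38201114-38203442), which codes for H1.0, had 26.7 ± 0.827 FPKM in GSK591, 49.97 ± 3.64 in MS023 and 55.2 ± 4.20 in DMSO. In FPKM the gap between the S-phase gene HIST1H1B and the replacement gene H1FX was thus small in GSK591 and wide in MS023 and DMSO. HIST1H1T (ENSG00000187475, chr6:26107640-26108364) stayed below 1 FPKM on average in every group, at 0.128 ± 0.0371 in GSK591, 0.370 ± 0.105 in MS023 and 0.666 ± 0.157 in DMSO. HIST1H1A (ENSG00000124610, chr6:26017260-26018040) was at the edge of detection. The order of the 8 mean levels was the same in the 3 groups.

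**Figure D2:**
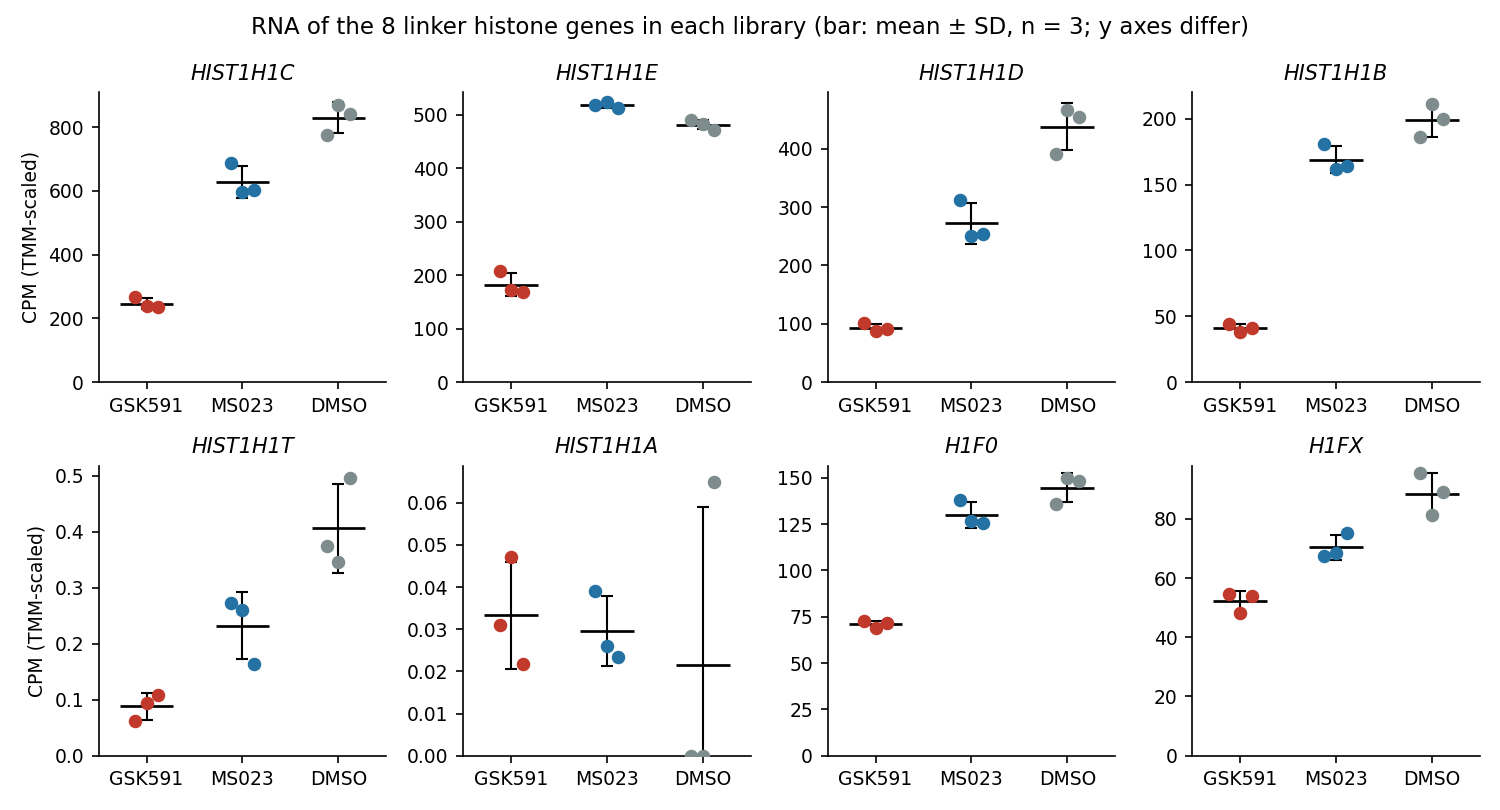
CPM of each H1 gene in every library, GSK591, MS023 and DMSO from left to right, with points for libraries and bars for mean and SD (n = 3 each), on an axis of its own for each gene. The GSK591 libraries lie below all DMSO libraries for each member except HIST1H1A.

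GSK591 against DMSO compares the H1 genes with and without PRMT5 inhibition, in plates that also differed in seeding. All 7 H1 genes that could be tested fell in GSK591 (edgeR quasi-likelihood test, adjusted p under 0.05 over 18292 genes), in a comparison where 32.4% of all tested genes fell, 30.1% rose and 62.6% changed in either direction. The GSK591 and DMSO libraries did not overlap for any of the 7, as for 65.6% of all tested genes, with 33.6% of all tested genes lower without overlap. Their median log2 change was -1.75, and that of all tested genes 0.01. HIST1H1A did not reach the minimum count for testing. HIST1H1T reached it only through its DMSO libraries, where it was high, so its fall is not independent of that filter. With a filter of 1 CPM in 3 libraries, which leaves HIST1H1T out, 6 H1 genes were called and all 6 fell. In these bulk libraries fewer cells in S phase and less RNA per cell cannot be told apart, and CPM is relative to the rest of the RNA. All 7 calls were the same under every alternative that tested the gene.

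Among the S-phase genes, HIST1H1B had 44.2, 38.2 and 41.2 CPM in GSK591, against 186.0, 211.3 and 199.4 CPM in DMSO. The groups were far apart, and the level was 4.83-fold lower in GSK591 (log2 -2.27 ± 0.06 SE, edgeR adjusted p = 1.47e-12). HIST1H1D had 101.2, 86.99 and 90.51 CPM in GSK591, against 391.6, 466.6 and 453.9 CPM in DMSO, and was 4.71-fold lower (log2 -2.24 ± 0.09, edgeR adjusted p = 3.62e-11). HIST1H1C, the gene with the most RNA, had 268.1, 237.5 and 234.7 CPM in GSK591, against 776.3, 870.4 and 842.1 CPM in DMSO, and was 3.36-fold lower (log2 -1.75 ± 0.06, edgeR adjusted p = 1.71e-11). The subtypes thus fell by unequal amounts. HIST1H1E fell least of the 4, with 207.3, 172.3 and 168.0 CPM in GSK591, against 490.7, 483.2 and 472.3 CPM in DMSO, a 2.64-fold lower level (log2 -1.40 ± 0.06, edgeR adjusted p = 1.12e-10).

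The replacement genes fell less than these 4 by the fitted values. H1F0 had 72.5, 69.0 and 71.78 CPM in GSK591, against 135.8, 150.1 and 148.2 CPM in DMSO, and was 2.04-fold lower (log2 -1.02 ± 0.05, edgeR adjusted p = 1.41e-10). H1FX had 54.67, 48.14 and 53.81 CPM in GSK591, against 95.36, 81.22 and 89.1 CPM in DMSO, and was 1.70-fold lower (log2 -0.76 ± 0.06, edgeR adjusted p = 7.23e-08). For both genes every GSK591 library lay below every DMSO library. The antisense gene H1FX-AS1 had 0.714, 0.894 and 0.393 CPM in GSK591, against 0.907, 0.737 and 1.10 CPM in DMSO.

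Of the genes near the limit of detection, the germ-cell gene HIST1H1T had 2, 4 and 5 counts in GSK591, against 12, 16 and 23 counts in DMSO. The groups did not overlap, and the fitted log2 change was -2.13 ± 0.39 (edgeR adjusted p = 2.56e-04), on sums of 11 counts in GSK591 and 51 in DMSO. HIST1H1A, which codes for H1.1, had 1, 2 and 1 counts in GSK591, 2, 1 and 1 in MS023 and 0, 0 and 3 in DMSO. No library exceeded 3 counts, the limit that a count of 0 allows, which is 0.0585 to 0.0938 CPM at these depths and covers counting error only. A difference in HIST1H1A was not detectable at this depth.

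MS023 against DMSO compares the same genes with and without type I inhibition, again in plates that differed in seeding. Of the 7 H1 genes tested, 6 fell and none rose in MS023, where 25.9% of all tested genes fell, 25.1% rose and 51.0% changed in either direction (edgeR, adjusted p under 0.05). The libraries did not overlap for 6 of the 7, as for 57.5% of all tested genes. These were not the same 6, since HIST1H1E was higher without overlap and not called, and H1F0 fell with overlap. Of all tested genes 29.1% were lower without overlap. Their median log2 change was -0.33, and that of all tested genes -0.003. HIST1H1D fell most among the well-counted members, with 312.4, 249.6 and 254.5 CPM in MS023, against 391.6, 466.6 and 453.9 CPM in DMSO (log2 -0.68 ± 0.08, edgeR adjusted p = 1.01e-05). HIST1H1C had 686.5, 595.4 and 603.0 CPM in MS023, against 776.3, 870.4 and 842.1 CPM in DMSO (log2 -0.40 ± 0.06, adjusted p = 8.22e-05). HIST1H1B had 180.4, 162.1 and 164.0 CPM in MS023, against 186.0, 211.3 and 199.4 CPM in DMSO (log2 -0.24 ± 0.06, adjusted p = 0.00357). In these 3 genes every MS023 library lay below every DMSO library, and the call of HIST1H1B ended only on FPKM without a filter (limma adjusted p = 0.108).

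HIST1H1E was the well-counted member that did not fall in MS023. It had 518.5, 524.7 and 512.8 CPM in MS023, against 490.7, 483.2 and 472.3 CPM in DMSO. Every MS023 library was above every DMSO library, yet the log2 difference of 0.11 ± 0.06 was not called (adjusted p = 0.168 in edgeR). It passed, as higher in MS023, without a filter on low counts (adjusted p = 0.0116), without GSK591 replicate 1 (0.0112) and with the 6 libraries compared alone (0.0189).

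Of the replacement genes, H1FX had 67.61, 68.46 and 75.21 CPM in MS023, against 95.36, 81.22 and 89.1 CPM in DMSO, with no overlap (log2 -0.33 ± 0.06, edgeR adjusted p = 4.32e-04). H1F0 had 138.1, 126.7 and 125.4 CPM in MS023, against 135.8, 150.1 and 148.2 CPM in DMSO. Its groups overlapped, and the small log2 change of -0.15 ± 0.05 passed (adjusted p = 0.0120) but lost its call in 9 of 21 alternatives. Among these were the fits without DMSO replicate 2 (0.0851), DMSO replicate 3 (0.0503), MS023 replicate 2 (0.0604) or MS023 replicate 3 (0.0680). HIST1H1T had 14, 10 and 7 counts in MS023, against 12, 16 and 23 in DMSO, and its log2 change of -0.80 ± 0.32 (adjusted p = 0.0492) lost its call in 16 of 18 alternatives, with adjusted p from 0.0425 to 0.206. Here too it passed the minimum count only through its DMSO libraries.

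Set directly against GSK591, MS023 left more RNA of every H1 gene that was tested. All 7 were higher in MS023, where 33.6% of all tested genes were higher, 31.7% lower and 65.4% different in either direction. The 7 include HIST1H1T, which passed the minimum count only through the DMSO libraries. With the 6 libraries compared alone, HIST1H1T was not tested. None of the 7 overlapped between the inhibitors, as for 70.5% of all tested genes. The median log2 difference was 1.35 for the H1 genes and 0.002 for all tested genes. HIST1H1B differed most, at 169 ± 10.1 CPM in MS023 and 41.2 ± 3.02 CPM in GSK591 (SD, n = 3 each), which is 4.10-fold higher (log2 2.03 ± 0.06, edgeR adjusted p = 9.09e-13). HIST1H1D was 2.93-fold higher (log2 1.55 ± 0.09), HIST1H1E 2.84-fold (1.51 ± 0.06) and HIST1H1C 2.55-fold (1.35 ± 0.06), with edgeR adjusted p of at most 7.11e-10. H1F0 was 1.83-fold higher (log2 0.87 ± 0.05, adjusted p = 4.49e-10) and H1FX 1.35-fold (0.43 ± 0.06, adjusted p = 2.25e-05). The replacement genes again had the smallest fitted differences. HIST1H1T had 31 counts over the MS023 libraries and 11 over the GSK591 libraries (log2 1.33 ± 0.43, adjusted p = 0.0139). Its call ended in 3 of 17 alternatives, namely without MS023 replicate 1 (0.0621), in DESeq2 (0.0540) and at a threshold of 0.01.

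**Figure D3:**
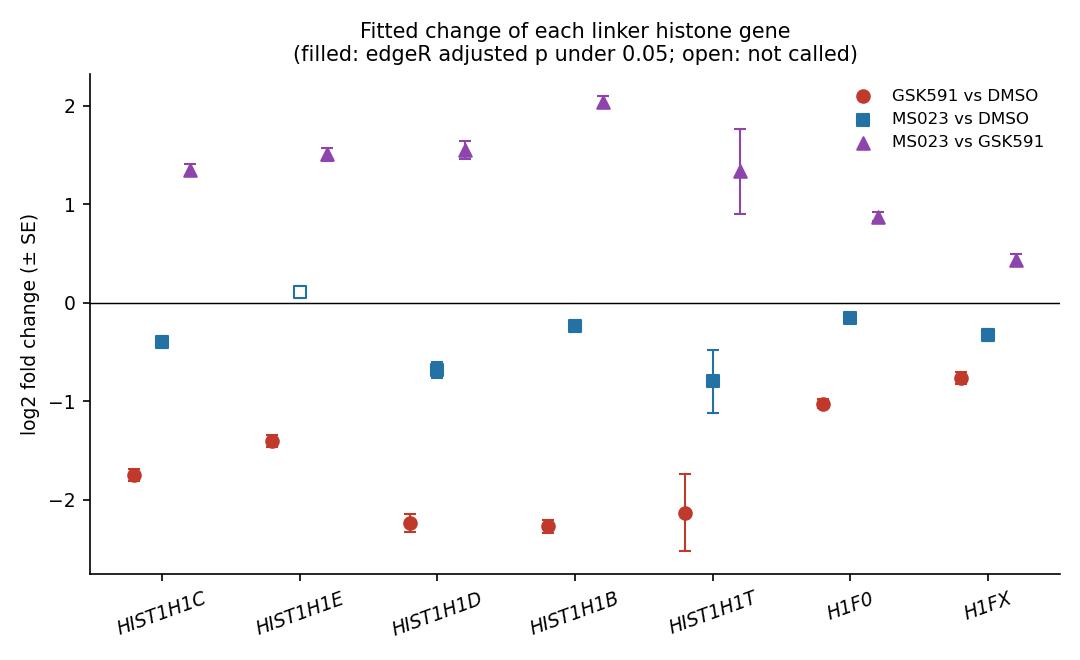
Fitted log2 fold change of the 7 H1 genes tested in each of the 3 comparisons (vertical axis), with bars for the standard error of the edgeR fit, filled symbols for calls and an open one for the value not called. In GSK591 against DMSO the values run from -2.27 for HIST1H1B to -0.76 for H1FX, and in MS023 against DMSO from -0.80 for HIST1H1T to 0.11 for HIST1H1E.

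Summed over the members, H1 RNA came to 748.2, 652.3 and 660.1 CPM in GSK591, 1904, 1727 and 1735 CPM in MS023 and 2076, 2263 and 2206 CPM in DMSO. The GSK591 sum was 31.5% of the DMSO sum and the MS023 sum 82.0% of it. The S-phase genes HIST1H1A to HIST1H1E together stood at 28.9% of DMSO in GSK591 and 81.5% in MS023, while H1F0 and H1FX together stood at 52.9% in GSK591 and 86.0% in MS023.

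The make-up of the H1 RNA was compared within each library. H1F0 and H1FX made up 8.19, 8.60 and 8.82% of the summed H1 FPKM in GSK591, 4.30, 4.88 and 5.09% in MS023 and 4.99, 4.07 and 4.53% in DMSO. All GSK591 libraries were above all others, by 4.003 percentage points over DMSO (two-sided exact permutation p = 0.1). In CPM, which is not per length, the difference was 7.29 points. MS023 and DMSO overlapped, with a difference of 0.226 points (exact p = 0.6). With 3 libraries against 3 the smallest p is 0.1, and none of the 24 exact tests on shares and ratios could pass after adjustment (0.114 for a raw p of 0.1).

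Among the S-phase genes, the share of HIST1H1E averaged 28.5% in GSK591, 29.7% in MS023 and 22.1% in DMSO. The share of HIST1H1D averaged 14.8% in GSK591, 16.0% in MS023 and 20.9% in DMSO. Both inhibitors thus had a larger share of HIST1H1E and a smaller share of HIST1H1D than DMSO, with no overlap between either inhibitor and DMSO (exact p = 0.1 each). HIST1H1B made up 6.41% in GSK591, 9.69% in MS023 and 9.31% in DMSO, and HIST1H1C 41.8% in GSK591, 39.9% in MS023 and 43.1% in DMSO. H1F0 made up 2.97% in GSK591, 1.99% in MS023 and 1.77% in DMSO. Its share in GSK591 exceeded that in DMSO by 1.198 points in FPKM and by 3.751 points in CPM. H1FX made up 5.57% in GSK591, 2.77% in MS023 and 2.76% in DMSO, the last pair overlapping (exact p = 1.0).

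**Figure D4:**
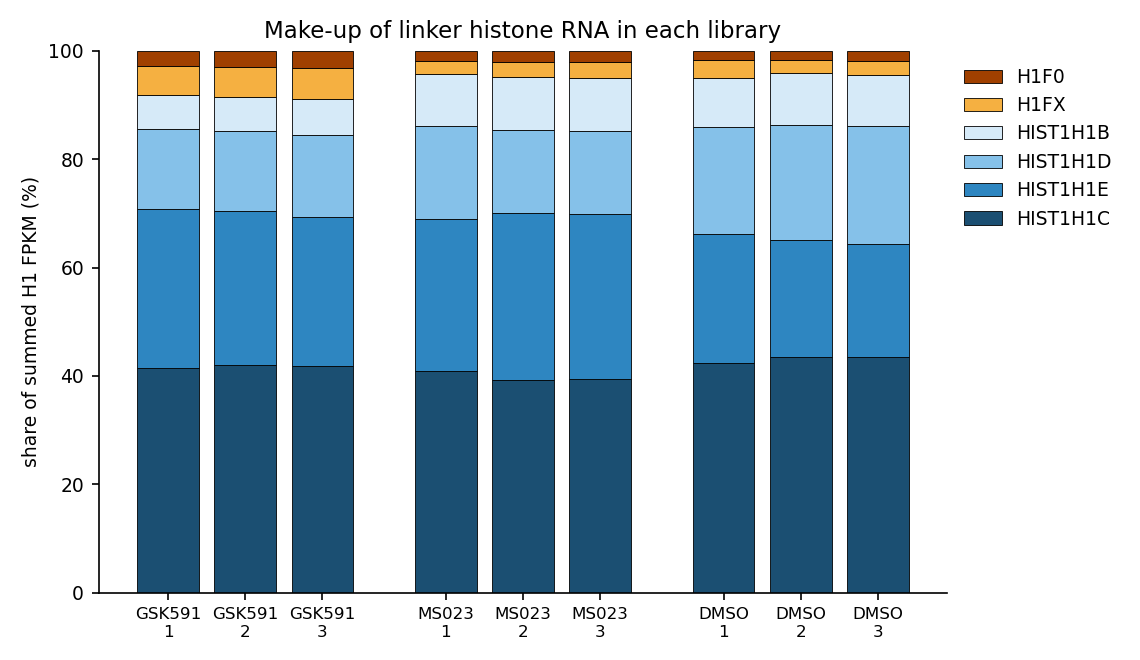
Share of each H1 gene in the summed H1 FPKM of every library (percent, vertical axis), for GSK591, MS023 and DMSO, without HIST1H1A and HIST1H1T, whose shares are too small to draw. H1F0 and H1FX together take 8.19 to 8.82% in GSK591, 4.30 to 5.09% in MS023 and 4.07 to 4.99% in DMSO.

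The core histones of the nucleosome are also encoded in histone clusters, in part the cluster of the H1 genes, and made in the same phase. Their genes gave the closest comparison. The replication-dependent core histone genes were taken by symbol alone, and pseudogenes were not set apart. Of 53 tested, 52 fell in GSK591 against DMSO and none rose, with a median log2 change of -1.63. That is 98.1% lower, against 32.4% of all tested genes. The exception, HIST2H2BD, had a log2 value of -0.15 ± 0.33. The largest decreases among genes that averaged 1 CPM or more were HIST1H4I (-2.17 ± 0.12), HIST1H4L (-2.14 ± 0.13) and HIST1H3J (-2.05 ± 0.07). HIST3H2BA, named after its values were seen, was below that level and fell by 2.12 ± 0.36. In MS023 against DMSO 23 fell and 3 rose, with a median of -0.20. That is 49.1% of the core histones called, near the 51.0% of all tested genes, though 43.4% were lower against 25.9% of all tested genes. HIST2H2BC, named after its values were seen, was lowest (-1.35 ± 0.25). Among genes that averaged 1 CPM or more and did not overlap, HIST1H2AB (-0.60 ± 0.09), HIST1H2BJ (-0.46 ± 0.07) and HIST2H2AC (-0.43 ± 0.08) were lower. HIST2H3A (0.41 ± 0.15), HIST1H4A (0.33 ± 0.07) and HIST1H4E (0.20 ± 0.07) were higher, calls that ended in 8, 3 and 7 of 21 alternatives. In MS023 against GSK591 51 were higher (median 1.49), which is 96.2% against 33.6% of all tested genes. The largest differences were those of HIST1H4L (2.16 ± 0.13) and HIST1H3F (1.91 ± 0.09). HIST2H2BC was lower there too (-0.69 ± 0.27, edgeR adjusted p = 0.0366). Many core histone genes are near-identical copies, so their single values are uncertain.

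Per 100 core histone counts there were 26.2, 27.0 and 26.0 S-phase H1 counts in GSK591, 28.01, 28.05 and 27.84 in MS023 and 30.4, 30.7 and 30.1 in DMSO. On counts the 3 groups did not overlap. The log2 ratio differed by -0.20 in GSK591 against DMSO, by -0.12 in MS023 against DMSO and by 0.08 in MS023 against GSK591 (exact p = 0.1 each). With summed FPKM in place of counts the inhibitors differed by 0.04 and were no longer separated (exact p = 0.3), while both stayed below DMSO. In GSK591 summed S-phase H1 CPM stood at 28.9% of DMSO and summed core histone CPM at 33.3%. In MS023 the S-phase H1 genes stood at 81.5% of DMSO and the core histones at 88.6%.

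Genes of S phase and DNA replication, where the replication-dependent histones are made, were tested in the same comparisons. Of 25, 24 fell in GSK591 against DMSO (median log2 -0.69), which is 96.0% lower against 32.4% of all tested genes. Among them were the topoisomerase TOP2A (-1.39 ± 0.04), RRM2, a subunit of ribonucleotide reductase (-1.35 ± 0.04), and GINS4 of the replicative helicase (-1.24 ± 0.06). CCNE1, which codes for cyclin E1, rose (0.60 ± 0.05). In MS023 against DMSO 8 rose and 8 fell (median 0.01), which is 64.0% called against 51.0% of all tested genes. These had CCNE1 (0.39 ± 0.05), the transcription factor E2F1 (0.38 ± 0.04) and CDC45 (0.26 ± 0.05) higher and the sliding clamp PCNA (-0.37 ± 0.04), TOP2A (-0.28 ± 0.03) and RRM2 (-0.25 ± 0.04) lower. In MS023 against GSK591 23 were higher, which is 92.0% against 33.6% of all tested genes, and CCNE1 was lower (-0.21 ± 0.05). The median of the list was 0.81, with CDC45 (1.36 ± 0.06) and TOP2A (1.11 ± 0.03) leading. The part of cell-cycle phase in the H1 values was not tested.

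Factors that transcribe histone genes or process and degrade their mRNA moved less than the S-phase genes in GSK591 against DMSO, by the median. Of 19, 13 fell and 1 rose in GSK591 against DMSO (median log2 -0.26). That is 73.7% called and 68.4% lower, against 62.6% and 32.4% of all tested genes. SLBP, which binds the histone stem-loop, was lower (-0.46 ± 0.05), as were the kinase CDK9 (-0.47 ± 0.05) and NFYA, a subunit of the factor that binds CCAAT boxes (-0.47 ± 0.05). UPF1, a helicase of histone mRNA decay, was higher (0.37 ± 0.04). In MS023 against DMSO 4 rose and 6 fell (median -0.06), which is 52.6% called and near the 51.0% of all tested genes. Higher were ZNF473, a zinc finger protein of the U7 snRNP pathway (0.32 ± 0.05), UPF1 (0.26 ± 0.04) and SYMPK, which codes for symplekin (0.20 ± 0.04). Lower were CPSF3, the cleavage endonuclease (-0.31 ± 0.03), NFYA (-0.31 ± 0.05) and the exonuclease XRN1 (-0.29 ± 0.04). In MS023 against GSK591 10 were higher and 2 lower (median 0.16), which is 63.2% called and near the 65.4% of all tested genes. ZNF473 (0.50 ± 0.05) and CDK9 (0.49 ± 0.05) were higher, and ERI1, a nuclease that trims the stem-loop end (-0.12 ± 0.04), and UPF1 (-0.10 ± 0.04) were lower. The calls of ERI1 and UPF1 against GSK591 ended in 6 and 11 of 21 alternatives. That of ZNF473 against DMSO ended in 3, all on FPKM, where its log2 change was 0.15 to 0.17.

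Partners of H1 in chromatin, such as chaperones, kinases and competing proteins, formed a list of 29, of which 28 were tested. In GSK591 against DMSO 22 fell and 3 rose (median log2 -0.44). That is 89.3% called and 78.6% lower, against 62.6% and 32.4% of all tested genes. Lower were the mitotic kinase AURKB (-1.12 ± 0.06) and HMGB2 (-1.10 ± 0.04) and HMGB1 (-1.05 ± 0.04), proteins that share binding sites on linker DNA with H1. Higher were L3MBTL1, a reader of methylated histones including H1 (0.68 ± 0.11), the acetyltransferase KAT2A (0.42 ± 0.05) and the remodeller CHD8 (0.17 ± 0.04). The calls of L3MBTL1 and CHD8 each ended in 3 of 21 alternatives, all on FPKM, where the log2 change of L3MBTL1 was 0.17 to 0.26. In MS023 against DMSO 7 rose and 9 fell (median -0.04), which is 57.1% called against 51.0% of all tested genes. These had L3MBTL1 (0.45 ± 0.11), the nuclease DFFB (0.28 ± 0.08) and the histone chaperone NASP (0.18 ± 0.04) higher and the deacetylase SIRT1 (-0.43 ± 0.03), the kinase PRKDC (-0.36 ± 0.04) and CBX3, which codes for HP1 gamma (-0.31 ± 0.06), lower. The calls of L3MBTL1, DFFB and NASP each ended in 3 of 21 alternatives. For L3MBTL1 and NASP these were all on FPKM, where the log2 change was 0.03 to 0.05 for L3MBTL1 and 0.11 for NASP. In MS023 against GSK591 18 were higher and 3 lower (median 0.42), which is 75.0% called against 65.4% of all tested genes, including AURKB (1.10 ± 0.06) and HMGB2 (1.03 ± 0.04) as higher and KAT2A (-0.41 ± 0.05) and PRKDC (-0.19 ± 0.04) as lower. The call of PRKDC against GSK591 ended in 3 of 21 alternatives, all on FPKM, where its log2 difference was -0.07 to -0.08.

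**Figure D5:**
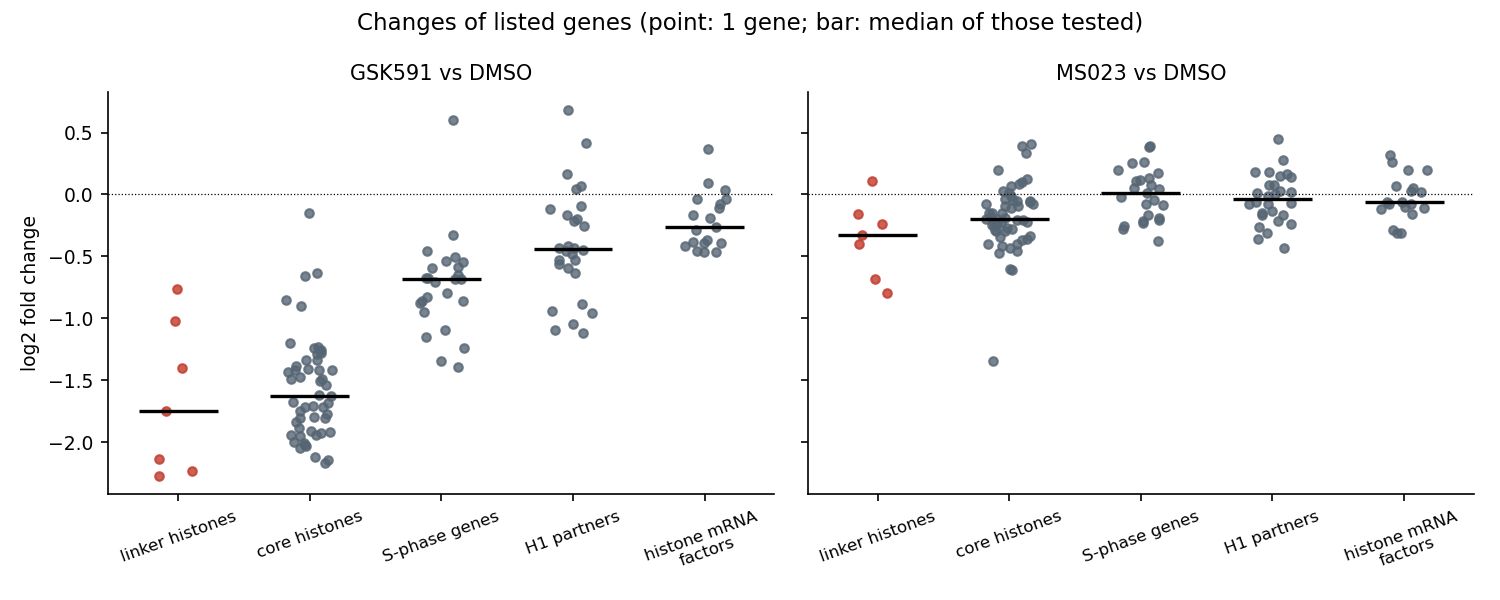
Log2 fold changes (vertical axis) of the H1 genes beside the core histones, S-phase genes, H1 partners and factors of histone mRNA in GSK591 against DMSO and MS023 against DMSO, one point per tested gene, with a bar at the median of each list. In GSK591 against DMSO the medians are -1.75 for the H1 genes and -1.63 for the core histones, against -0.69 for S-phase genes, -0.44 for partners and -0.26 for factors of histone mRNA.

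Likeness of profile was measured as the root mean square difference of log2 CPM over the 9 libraries, each gene centred on its mean, against 13771 genes. The nearest genes of HIST1H1E were HIST1H2BN (0.0375), ACP2 (0.0542) and HIST1H4E (0.0611), and those of HIST1H1C were HIST2H2BF (0.0720), HIST2H2BE (0.0812) and HIST1H2BJ (0.0945). HIST1H1B was nearest to S100P (0.101), HIST1H2AH (0.125) and HIST1H4I (0.131), and HIST1H1D to HIST1H2AB (0.106), RHOV (0.146) and HIST1H2AJ (0.147). Each of these 4 genes thus had core histone genes among its 3 nearest. The nearest genes of H1F0 were SPAG5 (0.0385), CKS1B (0.0442) and KIF15 (0.0450), which act in mitosis or the cell cycle, and those of H1FX were FOXRED1 (0.0535), MAFK (0.0563) and SOX2 (0.0639). The measure includes the group changes given above, so nearness is not separate evidence of likeness. In GSK591 against DMSO 0.148% of tested genes had a lower log2 change than HIST1H1B, 2.60% than H1F0 and 5.53% than H1FX. Between members the closest pair was HIST1H1C and HIST1H1D (0.203), followed by H1F0 and H1FX (0.214), and HIST1H1B and H1FX were farthest apart (0.744).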

How the data were processed

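Read counts per gene for 9 libraries (3 each of GSK591, MS023 and DMSO) and FPKM per gene with hg19 coordinates were used as deposited by the authors. The submitters' processing notes name cutadapt, STAR, featureCounts, DESeq2 and hg19, without versions. No source used here gives the strand setting or the annotation. FPKM were computed by the authors and deposited as 1 table per library, from which 108 identifiers listed more than once were left out.

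Counts were tested with edgeR 4.0.16 in R 4.3.3 (TMM, filterByExpr with a minimum count of 10 and total of 15, quasi-likelihood F-test on all 9 libraries, Benjamini-Hochberg over 18292 genes, threshold 0.05), after the scripts were tested on simulated data. The standard error is the size of the log2 change divided by the square root of F. Libraries held 31398075 to 51244525 counts, which sets the precision of low genes such as HIST1H1A and HIST1H1T. Shares of FPKM and ratios of counts were compared by two-sided exact permutation over libraries.

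The members and lists were chosen with earlier results of these data known. All members were named. From each other list the genes named passed the threshold, averaged 1 CPM or more and had groups that did not overlap, up to 3 per direction with the largest change against DMSO and 2 between the inhibitors. Exceptions are marked where they stand. Alternatives were RLE or total count scaling, no filter or 1 CPM in 3 libraries, a replicate block, each library left out, the 6 libraries compared alone, a threshold of 0.01, DESeq2 1.42.0, and limma 3.58.1 on log2 FPKM plus 1 or 0.1.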

Additional observations from a re-analysis of the deposited data

How the results depend on the processing

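The counts of H1 genes called were within 1.5 times of those reported under every alternative, at 6 to 7 in GSK591 against DMSO, 4 to 6 in MS023 against DMSO and 6 to 7 in MS023 against GSK591. The share of H1F0 and H1FX in MS023 against DMSO, 0.226 points as reported, ran from -0.00329 to 0.456 with 1 library left out, the lowest without DMSO replicate 2. The share of H1FX in MS023 against DMSO 0.0104 points as reported, changed sign on CPM (-0.124) and without MS023 replicate 2 (-0.0282) or 3 (-0.149) or DMSO replicate 2 (-0.214) or 3 (-0.0003), and was 0.245 without DMSO replicate 1. The cause was not tested. In CPM the share of H1F0 and H1FX differed by 7.29 points in GSK591 against DMSO, 0.519 in MS023 against DMSO and -6.77 in MS023 against GSK591, in place of 4.003, 0.226 and -3.78. With replicate number as a block, 11145, 8855 and 11642 genes were called in GSK591 against DMSO, MS023 against DMSO and MS023 against GSK591, and of the H1 calls only HIST1H1T in MS023 against DMSO was lost (adjusted p = 0.0797). The numbers did not pair the libraries, with r of -0.43 to 0.26 over 9 pairs. On log2(FPKM + 1), 5609 genes were called in MS023 against DMSO in place of 9327, 34.0% in place of 48.2% of the calls were higher in GSK591 against DMSO, and 63.8% in place of 51.5% in MS023 against GSK591. Fewer calls were also made in MS023 against DMSO for core histones (17 at a threshold of 0.01 and 5 to 13 on FPKM, in place of 26), factors of histone mRNA (4 to 5 on FPKM in place of 10), and, on FPKM without a filter, partners and S-phase genes (9 each in place of 16). The factors had 7 in place of 12 in MS023 against GSK591 in that last setting. Of 54 results for named genes of the other lists, 17 lost their call in at least 1 alternative, among them CDC45, HIST1H2BJ, HIST2H2AC, PRKDC and XRN1 in MS023 against DMSO on FPKM without a filter only. Depth limits HIST1H1A and HIST1H1T.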

Other observations

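Linker histone genes of germ cells outside the described set were barely counted. H1FNT had at most 3 counts in a library, H1FOO at most 10 and HILS1 at most 5, and none of them was tested.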
